A study of Mus musculus with 12 samples.

Results

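The mouse genes named Zfp500 to Zfp999 encode zinc finger proteins, for the most part repressors that bind DNA through arrays of C2H2 fingers and many of which carry a KRAB box. All genes whose symbol lies in that numbered range were taken, which gave 203 of the 34245 genes with expression values, while Zfp568 and Zfp688 were chosen by their fold changes with p38-MAPKi, and the range itself with those changes in view. Embryos of F1 hybrid mice (C57Bl6 x CBA/W) had been isolated at E1.5 (2-cell stage), grown in KSOM+AA and, from E3.5, given 20 µM SB220025, an inhibitor of p38-MAPK (p38-MAPKi), or DMSO alone (control), and were sequenced after poly(A) selection. The 6 groups were control and p38-MAPKi embryos at E3.5 + 4 h, E3.5 + 7 h and E3.5 + 10 h, each with 2 libraries from pools of 30 embryos. The libraries are bulk pools, so fewer cells of a type and less RNA per cell cannot be told apart.

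KRAB zinc finger proteins bind chosen DNA sequences through their fingers and recruit TRIM28 (KAP1), which brings SETDB1 and HP1 proteins and leads to H3K9 trimethylation. Their best known targets are transposable elements, which they silence in the early embryo, and a few control host genes: ZFP568 represses a placental promoter of Igf2. Zinc finger proteins without a KRAB box in the same range have other roles, from ribosome quality control (ZFP598) and maturation of the large ribosomal subunit (ZFP622, ZFP593) to epidermal differentiation (ZFP750).

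The libraries held the lineages of a blastocyst. Of 7 trophectoderm markers Krt18 was the most abundant, with a mean of 1170 RPKM (reads scaled to transcript length and library size), and Elf5 stayed under 1 RPKM in every library. All 6 epiblast markers were detected, led by Pou5f1 with a mean of 427 RPKM, and the 6 primitive endoderm markers were led by Gata6 with 103 RPKM, Sox7 staying under 1 RPKM in every library. None of 6 cumulus or granulosa cell markers reached 1 RPKM in any library (Amh was highest, with a mean of 0.396 RPKM, and Has2, Ptx3 and Tnfaip6 had no read). Of 4 blood markers Ptprc and Hbb-bt had no read while Cd68 averaged 4.80 RPKM. Hba-a1 averaged 0.296 RPKM and reached 1.01 RPKM in the first p38-MAPKi library of 4 h. The p38-MAPKi libraries at 7 h stood apart. The first of them held 11242313 reads on genes and detected 14005 genes, against 16346 to 17647 genes in the other 11 libraries. The correlation of log2 RPKM between its 2 replicates was 0.924, against 0.969 to 0.981 in the other 5 groups.

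Zinc finger genes of the range were widely but weakly expressed, as were those outside the range. Of the 189 Zfp genes outside it, 60.8% had a mean of at least 1 RPKM and 8.99% of at least 10 RPKM. At least 1 read was found for 193 of the 203, and 130 (64.0%) had a mean of at least 1 RPKM over the 12 libraries, compared with 31.4% of all genes. Only 16 (7.88%) reached a mean of 10 RPKM, compared with 14.4% of all genes. Among genes with a mean of at least 1 RPKM the median was 2.95 RPKM for the range and 8.58 RPKM for all genes. For Zfp genes outside the range it was 2.92 RPKM. The summed RPKM of the range was 737 and 851 in the control libraries at 4 h. It was 848 and 865 in those of 7 h and 855 and 830 in those of 10 h. With p38-MAPKi it was 778 and 739 at 4 h, 701 and 749 at 7 h and 850 and 824 at 10 h. The p38-MAPKi libraries at 7 h were thus lower than both controls of their time, whereas at 4 h and 10 h the groups overlapped. At 7 h 59.9% of all genes tested, and 84.2% of Zfp genes outside the range, also had a log2 fold change below 0. The sums are description only.

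**Figure D1:**
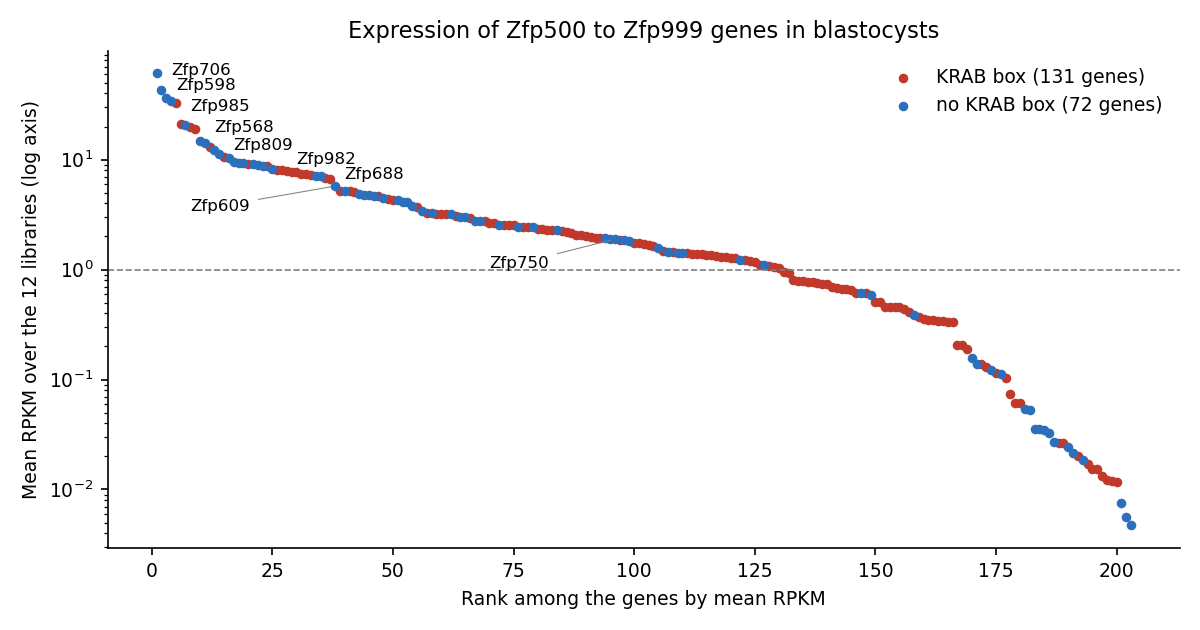
Mean RPKM over the 12 libraries of the 203 zinc finger genes, ranked, with and without a KRAB box.

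The 4 most abundant members had no KRAB box and 1 to 3 fingers. Zfp706, which promotes exit of embryonic stem cells from self-renewal, had the highest mean, 60.9 RPKM, with a range of 55.7 to 69.1 RPKM over the 12 libraries. Zfp598, a ubiquitin ligase that recognises collided ribosomes, followed with 43.2 RPKM, and Zfp622, a maturation factor of the large ribosomal subunit, with 36.5 RPKM. Zfp593, with a related role in the same subunit, averaged 33.8 RPKM, and Zfp830, which the early embryo needs to survive and which ranked below the KRAB members Zfp985 and Zfp568, 20.6 RPKM. Each of these 5 genes was read in every library, Zfp593 with the widest range, 23.1 to 56.1 RPKM, and with 66.91% of its 50-base stretches shared with 1 other gene. Zfp692, which binds the Pck1 promoter, averaged 14.1 RPKM, while Pck1 itself had no read in any library. Zfp746 (PARIS), a repressor of Ppargc1a, averaged 4.44 RPKM, and Ppargc1a had no read.

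Of the KRAB members, Zfp985 was the most abundant, with a mean of 32.5 RPKM. Zfp568 followed with 21.0 RPKM, and then Zfp979 with 19.9 RPKM and Zfp777 with 19.0 RPKM. Zfp809, which silences proviruses of the Moloney type, averaged 10.6 RPKM. Other repressors of repeat elements were weaker: Zfp932 averaged 2.92 RPKM, Zfp708 1.41 RPKM and Zfp819 0.792 RPKM. A KRAB box was found in 131 members and not in 72 by scoring translated coding sequences (GENCODE M21, GRCm38) against a profile of the box. KRAB members had a median of 11 C2H2 fingers and the others 7. A mean of 1 RPKM was reached by 78 of the 131 (59.5%) with the box and by 52 of the 72 (72.2%) without it, and 10 RPKM by 6 and 10 genes.

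Several members known from differentiated tissue were silent. Zfp521 and Zfp536, both neural regulators, averaged 0.00754 RPKM and 0.00558 RPKM, which for Zfp521 meant no read at all. Zfp541, which acts in spermatocytes, averaged 0.0271 RPKM, and Zfp503, a corepressor of the NET family, 0.0357 RPKM. Zfp703, the other NET corepressor, averaged 9.39 RPKM. No read was found for 10 members: Zfp965, Zfp966, Zfp967, Zfp968, Zfp969, Zfp973, Zfp663 and Zfp831 on chromosome 2, Zfp648 on chromosome 1 and Zfp521 on chromosome 18.

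Chromosome 7 carried 51 of the 203 members, chromosome 17 carried 25, chromosome 4 carried 22, chromosome 8 carried 16 and chromosome 2 carried 15. Many are close copies of each other, so short reads may be shared between them. In KRAB members a median of 5.09% of all 50-base windows of the transcripts also occurred in another gene, against 0.53% in members without the box; 64 members passed 10% and 51 shared no window. The 6 silent genes Zfp965 to Zfp969 and Zfp973 shared 84.67% to 100% of their windows with 49 to 54 other genes, so their lack of reads is uncertain. Zfp663, Zfp831 and Zfp648 shared none. How reads with several positions or from the opposite strand had been counted was not stated, so values of close copies and of genes with overlapping antisense transcripts are uncertain; of the genes that follow, Zfp568 shared 0.05% of its windows, Zfp688 0%, and Zfp982 11.89%, with 33 other genes.

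Over time in control embryos none of the zinc finger genes passed the test, and their median lay beside that of all genes, above 0 in each step. Fold changes on the log2 RPKM scale were tested with limma in each comparison, with Benjamini-Hochberg adjustment and a limit of 0.05. Such p-values rest on the spread between these pools only. In the comparison of 7 h with 4 h the standard error followed a gene's level and not its own spread. It was 0.185 for Zfp568, Zfp593 and Klf2 alike. Genes were tested if they passed a filter of at least 1 RPKM in 2 or more of the 4 libraries compared. From 4 h to 7 h, 131 of the 203 members passed that filter and limma called 0 (0.492% of all genes tested), 4 had an unadjusted p under 0.05 (4.79% of all genes tested), 4 of them higher (3.94%) and 0 lower (0.844%), and voom on recovered reads called 0. From 7 h to 10 h, 131 were tested and 0 were called by limma (0.0552% of all genes tested), with 3 at an unadjusted p under 0.05 (3.79%), 1 higher (2.19%) and 2 lower (1.60%), and 0 called by voom. From 4 h to 10 h, 131 were tested and 0 were called by limma (0.471%), with 12 at an unadjusted p under 0.05 (15.2%), 10 higher (13.2%) and 2 lower (2.05%), and 2 called by voom, Zfp687 and Zfp750. Of the 12, Zfp750 (higher) and Zfp819 (lower) passed the filter only through the time where they were high. Calls from 4 h to 10 h also appeared when the second control library of 4 h was left out. No share of all genes stands beside the calls of voom or of that fit, so nothing is read from them.

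More members were higher than lower at the later time in the comparisons with 4 h, as were more of all genes. Between 4 h and 10 h both control libraries were higher at 10 h for 48 members (42.3% of all genes tested) and lower for 10 (8.06%). Between 4 h and 7 h the counts were 36 higher (25.3%) and 6 lower (3.69%), and between 7 h and 10 h 20 higher (18.3%) and 21 lower (12.4%). Some of these members passed the filter only through the time where they were high. From 4 h to 10 h these were Zfp750 (higher) and Zfp819 (lower), and from 4 h to 7 h Zfp819 and Zfp758 (lower). From 7 h to 10 h they were Zfp758 (higher) and Zfp960 (lower). Median centring of the libraries moves the median of all genes by more than 0.1 in the comparisons of 7 h and 10 h with 4 h, so members are given beside that median: 0.11 for members and 0.11 for all genes from 4 h to 7 h, and 0.15 and 0.14 from 4 h to 10 h. From 7 h to 10 h the medians were 0.02 and 0.02. KRAB members had a median of 0.05 from 4 h to 7 h (39.5% below 0) and the others 0.17 (18% below 0). From 4 h to 10 h these medians were 0.12 and 0.17. Markers moved from 4 h to 10 h too: Cd68 rose (log2 fold change 1.19; limma with Benjamini-Hochberg adjustment, adjusted p = 0.0104). Gata4 (1.04), Sox17 (0.93), Krt8 (0.49) and Krt18 (0.50) were among those higher without overlap, and Nanog was lower (-0.32). Their part in the values of the zinc finger genes was not tested.

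Zfp750, a regulator of epidermal differentiation, was read (to 2 significant digits) at 0.65 and 0.53 RPKM in control embryos at 4 h, at 0.89 and 2.2 RPKM at 7 h and at 1.6 and 1.4 RPKM at 10 h. Both libraries of 10 h were above both of 4 h, and so were both of 7 h, which overlapped those of 10 h. The log2 fold change from 4 h to 10 h was 1.38, from 36 and 31 reads at 4 h and 99 and 109 at 10 h. It is a description only, as is the call by voom, because Zfp750 passed the filter in this comparison through its 10 h libraries alone. Zfp524, with 4 C2H2 fingers and no KRAB box, was read at 2.53 and 2.97 RPKM in control embryos at 4 h, 4.58 and 3.10 RPKM at 7 h and 4.10 and 4.78 RPKM at 10 h. Its 4 h libraries lay below all later controls, with a log2 fold change of 0.69 from 4 h to 10 h. Zfp687, a partner of ZMYND8, was read at 6.91 and 7.93 RPKM at 4 h and at 9.70 and 10.5 RPKM at 10 h in control embryos, a log2 fold change of 0.45 with no overlap.

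The comparisons with p38-MAPKi are description only at all 3 times, since their fold changes were in view when the range was chosen. At E3.5 + 4 h, the zinc finger genes of the range lay lower with p38-MAPKi than all genes tested, as did zinc finger genes outside the range. Of 203 members 129 were tested, with a median log2 fold change of -0.17 against 0.07 for all genes tested, and 86 (66.7%) lay below 0, compared with 40.0% of all genes and 78.2% of 110 zinc finger genes outside the range, whose median was -0.13. For 40 members both p38-MAPKi libraries were below both controls (13.7% of all genes tested) and for 19 they were above (26.8%). Among the 40, Zfp758, Zfp719 and Zfp943 passed the filter only through the controls, where they were high. Among the 19, Zfp580 passed it only through the p38-MAPKi libraries. Calls were few: 3 members were called by limma (0.909% of all genes tested), 1 higher (0.621%) and 2 lower (0.288%), namely Zfp688, Zfp568 and Zfp982. Nothing is read from that count. At this time limma gave every gene the variance of the trend at its level, since its prior degrees of freedom were infinite. The calls changed when any 1 library was left out, and nothing is read from the counts of those fits.

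Markers of the lineages differed in this comparison too. Of 6 trophectoderm markers tested at 4 h, 3 were higher and 2 lower without overlap. The higher included Krt8 (477 and 509 RPKM in control embryos, 571 and 572 RPKM with p38-MAPKi) and Krt18 (909 and 989 RPKM, 1050 and 1080 RPKM). Tfap2c was also higher (38.9 and 44.8 RPKM, 49.1 and 50.1 RPKM). The lower were Cdx2 (195 and 219 RPKM in control embryos, 151 and 158 RPKM with p38-MAPKi) and Gata3 (92.1 and 101 RPKM, 62.5 and 70.7 RPKM). Of 6 epiblast markers 1 was higher and 2 lower, and of 5 primitive endoderm markers 0 and 2. The blood marker Cd68 rose, from 2.65 and 2.83 RPKM to 4.48 and 7.32 RPKM (log2 fold change 1.06; limma with Benjamini-Hochberg adjustment, adjusted p = 0.0188). Their part in the values of the zinc finger genes was not tested.

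Zfp568 (ENSMUSG00000074221.12, chr7:29983955-30028282, plus strand, GRCm38), the KRAB repressor of Igf2, carries 11 fingers. It was read at 25.3 and 25.3 RPKM in control embryos at 4 h and at 16.6 and 11.2 RPKM with p38-MAPKi. At 7 h it was read at 25.5 and 29.7 RPKM in control embryos and at 8.61 and 10.1 RPKM with p38-MAPKi, and at 10 h at 27.5 and 28.2 RPKM and 22.7 and 21.0 RPKM. All 6 p38-MAPKi libraries lay below all 6 controls, lowest at 7 h and nearest to the controls at 10 h. The log2 fold changes were -0.89, -1.56 and -0.35 at 4, 7 and 10 h, or 0.540, 0.338 and 0.784 times the control level; they are given as description, since the gene was named with these values known.

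Zfp688 (ENSMUSG00000045251.13, chr7:127418967-127422068, minus strand) differs from Zfp568 in size and direction, with a KRAB box and 2 fingers. It was read at 4.19 and 3.63 RPKM in control embryos at 4 h and at 8.55 and 7.06 RPKM with p38-MAPKi. At 7 h it was read at 5.72 and 5.98 RPKM and at 11.8 and 9.04 RPKM with p38-MAPKi, and at 10 h at 5.05 and 4.32 RPKM and 7.82 and 6.46 RPKM. All 6 p38-MAPKi libraries lay above all 6 controls, with the widest gap in RPKM at 7 h. The log2 fold changes, also description only, were 0.99, 0.82 and 0.61.

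Zfp982 (ENSMUSG00000078496.9, chr4:147492417-147513486, plus strand), a KRAB member in a cluster of close copies, was read at 7.39 and 8.43 RPKM in control embryos at 4 h and at 4.97 and 3.58 RPKM with p38-MAPKi. Both p38-MAPKi libraries were below both controls. The log2 fold change was -0.90 (standard error 0.248). Over 12 alternative settings the call of limma was kept in 2, with log2 (RPKM + 1) and without the first p38-MAPKi library. At 7 h Zfp982 was read at 9.04 and 9.78 RPKM in control embryos and 5.68 and 4.66 RPKM with p38-MAPKi, and at 10 h at 11.2 and 7.62 RPKM and 7.94 and 8.0 RPKM. The groups thus did not overlap at 7 h but did at 10 h.

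**Figure D2:**
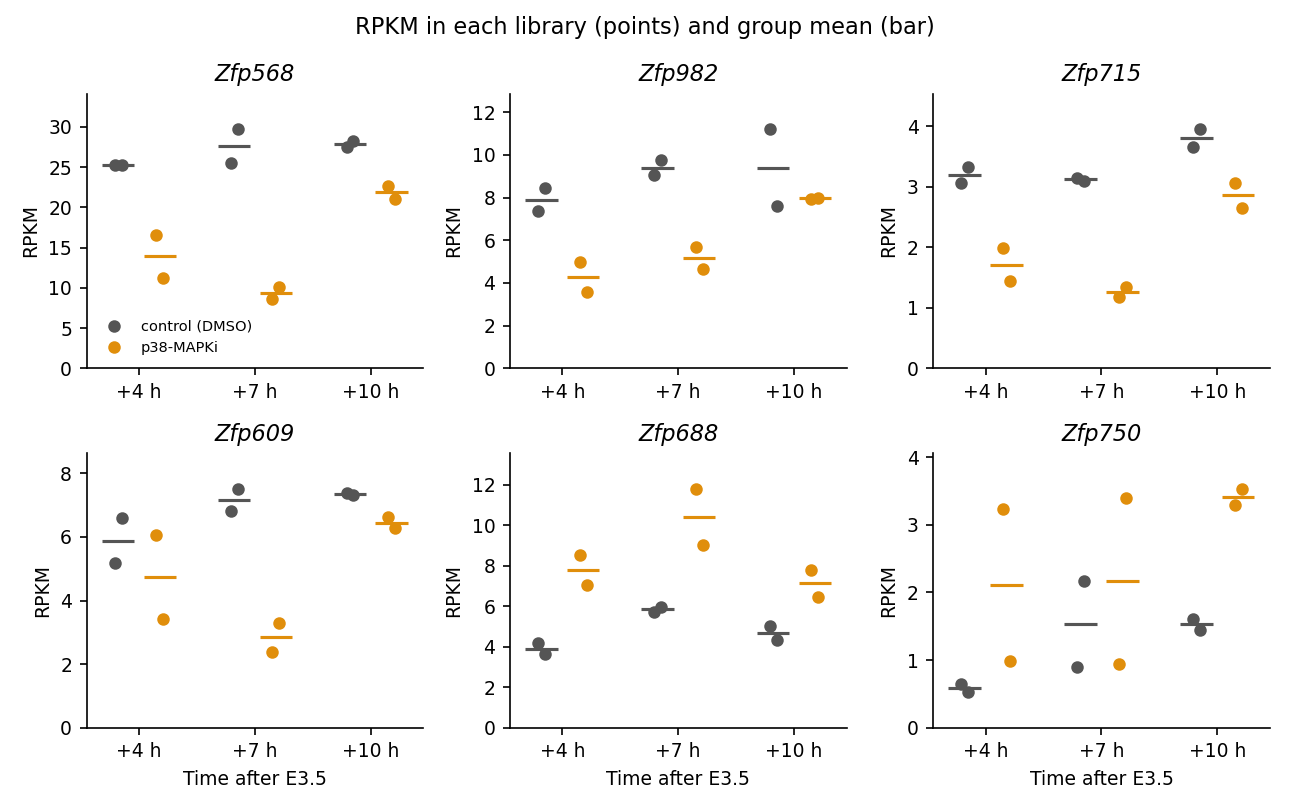
RPKM in each of the 12 libraries for the members on which the results turn, by time and treatment.

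Other members with large values at 4 h did not pass the test. Zfp715, a KRAB gene, was read at 3.07 and 3.32 RPKM in control embryos and 1.99 and 1.44 RPKM with p38-MAPKi, a log2 fold change of -0.92. Zfp988, from the same cluster as Zfp982, was read at 2.88 and 3.21 RPKM and at 1.41 and 2.00 RPKM with p38-MAPKi, a log2 fold change of -0.86, and 68.14% of its windows occurred in other genes. Both pairs of groups were separate at this time. Zfp703 was read at 5.85 and 9.33 RPKM in control embryos and at 12.4 and 10.4 RPKM with p38-MAPKi, a log2 fold change of 0.62. Zfp524 was read at 2.53 and 2.97 RPKM and at 4.84 and 3.64 RPKM with p38-MAPKi, a log2 fold change of 0.61. In these 2 genes without a KRAB box both p38-MAPKi libraries were above both controls.

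Promoters of Zfp688 and of Zfp715 are shown because these genes kept opposite directions at all 3 times. RefSeq promoters (GRCm38.p6) were matched for 172 of the 203 members, with 205 start sites; Zfp568, Zfp609 and Zfp750 had no entry. The 250 bases before the start are given 5′ to 3′, chr7:127422035-127422284 (minus strand) for Zfp688 and chr7:43313301-43313550 (minus strand) for Zfp715, and capitals mark the matches found.
Zfp688: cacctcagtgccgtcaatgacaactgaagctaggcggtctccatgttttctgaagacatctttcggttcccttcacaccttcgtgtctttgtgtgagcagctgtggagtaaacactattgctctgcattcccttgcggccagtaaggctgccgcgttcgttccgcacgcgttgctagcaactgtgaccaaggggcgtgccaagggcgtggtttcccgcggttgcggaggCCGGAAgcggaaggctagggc
Zfp715: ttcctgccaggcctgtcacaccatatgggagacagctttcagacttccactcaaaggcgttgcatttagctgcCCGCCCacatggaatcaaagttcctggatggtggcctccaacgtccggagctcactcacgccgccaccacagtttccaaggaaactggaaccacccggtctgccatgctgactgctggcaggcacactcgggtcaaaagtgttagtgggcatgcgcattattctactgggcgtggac
In Zfp688 the match was the ETS motif CCGGAA, 21 to 16 bases before the start, and in Zfp715 it was a GC box on the opposite strand, 177 to 172 bases before the start. The motifs searched on both strands were the GC box GGGCGG, the TATA box TATAAA, the CCAAT box CCAAT, the E-box CACGTG, the AP-1 motif TGANTCA and the ETS motif CCGGAA. Of the 205 member promoters 42.0% held the GC box, 4.88% the TATA box, 53.7% the CCAAT box, 8.29% the E-box, 3.90% the AP-1 motif and 27.3% the ETS motif. Over all 32851 promoters the shares were 32.7%, 12.4%, 33.8%, 6.02%, 6.75% and 12%. Median GC content was 53.6% in members and 52.4% in all promoters.

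At E3.5 + 7 h, scaling mattered: the median log2 fold change of all genes was -0.14 and moved to 0.05 with median centring. Of 203 members 133 were tested, with a median of -0.34 (-0.20 relative to all genes), and 102 (76.7%) lay below 0, compared with 59.9% of all genes; with median centring 81 of the 133 lay below 0 and their median was -0.15. For 65 members both p38-MAPKi libraries were below both controls (38.7% of all genes tested) and for 10 they were above (23.0%). These counts hold members, such as Zfp689 and Zfp580, that passed the filter only through the group where they were high. Limma called 2 members (2.13% of all genes tested), 0 higher (0.932%) and 2 lower (1.20%), Zfp568 and Zfp609; nothing is read from this count, since the rule used these values. The calls changed when any 1 library was left out. Nothing is read from the counts of those fits, which have no share of all genes beside them. Lineage markers differed as well: without overlap, 4 of 5 primitive endoderm markers tested were lower (Sox17 overlapped), 3 of 6 trophectoderm markers were lower (Cdx2, Gata3 and Eomes), and 3 of 6 epiblast markers were lower and 1 higher. Limma called 1 primitive endoderm marker lower, beside 1.20% of all genes tested. The summed RPKM of the primitive endoderm markers, mostly Gata6 and Dab2, was 174 and 189 in control embryos and 116 and 122 with p38-MAPKi, that of the trophectoderm markers 2390 and 1810 and 2210 and 2060, and that of the epiblast markers 623 and 673 and 704 and 662. Their part in the result was not tested, nor was that of the shallow first p38-MAPKi library.

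Zfp609 (ENSMUSG00000040524.9, chr9:65692391-65827564, minus strand), a partner of the cohesin loader NIPBL with no KRAB box, was read at 6.81 and 7.51 RPKM in control embryos at 7 h and at 2.38 and 3.31 RPKM with p38-MAPKi. At 4 h it was read at 5.17 and 6.59 RPKM in control embryos and 6.05 and 3.41 RPKM with p38-MAPKi, and at 10 h at 7.39 and 7.31 RPKM and 6.63 and 6.27 RPKM. The groups overlapped at 4 h and were separate at 7 and 10 h. Its log2 fold changes were -0.36, -1.35 and -0.19 at 4, 7 and 10 h. Zfp715 was read at 3.15 and 3.10 RPKM in control embryos at 7 h and at 1.18 and 1.34 RPKM with p38-MAPKi, and at 10 h at 3.65 and 3.95 RPKM and 3.07 and 2.65 RPKM. Like Zfp568, its p38-MAPKi libraries lay below the controls of the same time at 4, 7 and 10 h, with log2 fold changes of -0.92, -1.31 and -0.41. Zfp516, a regulator of brown fat, was read at 2.71 and 3.38 RPKM at 7 h and at 1.0 and 1.61 RPKM with p38-MAPKi, a log2 fold change of -1.25. Zfp526 was read at 3.08 and 3.10 RPKM at 7 h and at 1.63 and 0.967 RPKM with p38-MAPKi, a log2 fold change of -1.30. In both genes the groups were separate.

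The comparisons at 4 h and 7 h share no library, and 127 members were tested in both. Of these, 70 (55.1%) were below 0 at both times and 14 (11%) above 0 at both, compared with 34.6% and 34.0% of the 10592 genes tested at both. Without overlap, 20 members (15.7%) were lower at both times, compared with 10.2% of all genes, among them Zfp568, Zfp638, Zfp715, Zfp982 and Zfp990. These 20 were 51.3% of the 39 lower at 4 h and 31.2% of the 64 lower at 7 h, where for all genes the shares were 74.8% and 26%. Higher at both were 5 members (3.94%, compared with 11.3% of all genes), Zfp524, Zfp566, Zfp580, Zfp688 and Zfp788, which made 26.3% of the 19 higher at 4 h and 62.5% of the 8 higher at 7 h, where for all genes the shares were 42.0% and 49.7%. Another 4 members (3.15%, compared with 2.72% of all genes) were higher at 4 h and lower at 7 h, Zfp628, Zfp689, Zfp691 and Zfp865, and 0 the reverse (0.614% of all genes). Of the members without overlap at both times, Zfp580 (at 4 h and 7 h), Zfp943 (at 4 h) and Zfp689 (at 7 h) passed the filter only through the group where they were high. The counts of a single time hold further members of this kind, such as Zfp719 among the 39 lower at 4 h. At all 3 times Zfp568, Zfp574, Zfp638, Zfp715 and Zfp936 were lower without overlap (3.97% of 126 members, 4.29% of 10466 genes) and Zfp566 and Zfp688 higher (1.59% and 3.61%), lists made after the values were seen and with shares no larger than those of all genes. Zfp638, which helps to silence unintegrated retroviral DNA, had log2 fold changes of -0.37, -0.41 and -0.09.

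**Figure D3:**
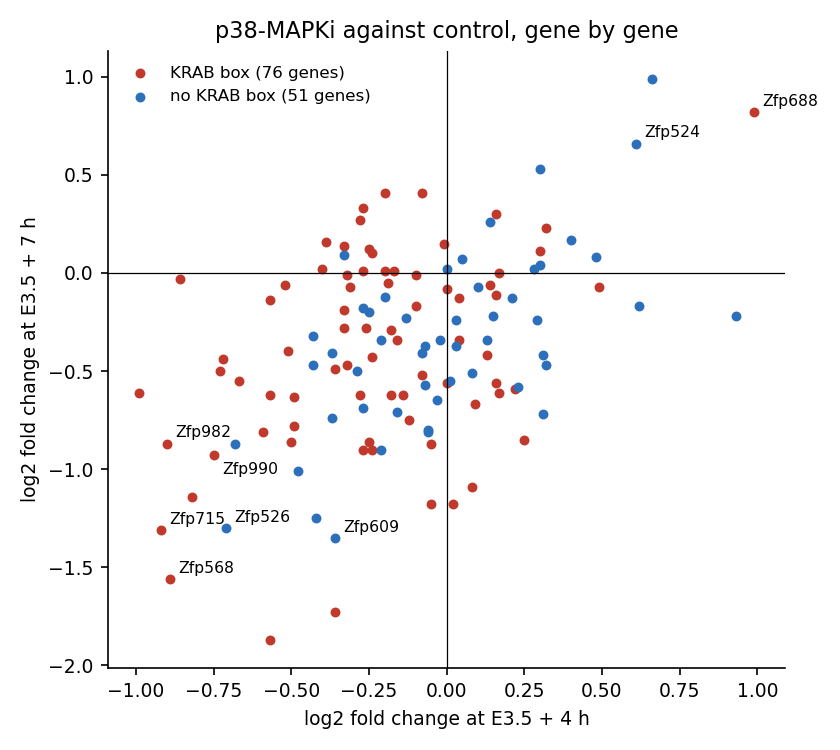
Log2 fold change with p38-MAPKi of each member tested at both 4 h and 7 h, from libraries that are not shared.

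At E3.5 + 10 h, the zinc finger genes were back beside all other genes. Of 203 members 132 were tested, with a median log2 fold change of 0.02 against -0.02 for all genes tested, and 62 lay below 0, compared with 54.3% of all genes. For 30 members both p38-MAPKi libraries were above both controls (22.6% of all genes tested) and for 23 below (29.6%). Among the 23, Zfp560 passed the filter only through the controls, where it was high. Limma called 1 member (0.803% of all genes tested), Zfp750, so 1 higher (0.338%) and 0 lower (0.465%). The count was 0 without the second control library and 0 without the first p38-MAPKi library; without the second p38-MAPKi library it was 1, but the call was Zfp771, which was lower, and not Zfp750. Markers of other cell types also differed: without overlap, 4 of 6 epiblast markers, 2 of 6 trophectoderm markers and 2 of 5 primitive endoderm markers were lower and 1 primitive endoderm marker was higher. The blood marker Cd68 was read at 6.23 and 6.29 RPKM in control embryos and at 3.87 and 3.84 RPKM with p38-MAPKi, lower without overlap, whereas at 4 h it had been higher. The summed RPKM of the epiblast markers was 603 and 600 in control embryos and 541 and 568 with p38-MAPKi, that of the trophectoderm markers 2320 and 2550 and 2170 and 2460, and that of the primitive endoderm markers 182 and 179 and 185 and 180. Their part in the values of the zinc finger genes, Zfp750 among them, was not tested.

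Zfp750 (ENSMUSG00000039238.6, chr11:121510978-121519333, minus strand) was read (to 2 significant digits) at 1.6 and 1.4 RPKM in control embryos at 10 h and at 3.3 and 3.5 RPKM with p38-MAPKi. At 7 h it was read at 0.89 and 2.2 RPKM in control embryos and 0.94 and 3.4 RPKM with p38-MAPKi, and at 4 h at 0.65 and 0.53 RPKM and 3.2 and 0.99 RPKM. The groups were separate at 4 h and 10 h and overlapped at 7 h. At 4 h too few libraries reached 1 RPKM for a test. Its log2 fold change at 10 h was 1.16 (standard error 0.170), with 99 and 109 reads in control embryos and 234 and 279 with p38-MAPKi. Over 12 alternatives the call was kept in 6, and it was lost without the second control library and without either p38-MAPKi library. Zfp868, a KRAB member, was read at 4.67 and 4.35 RPKM in control embryos at 10 h and at 6.48 and 6.06 RPKM with p38-MAPKi, a log2 fold change of 0.48 with separate groups that did not pass the test. Zfp771, without a KRAB box, was read at 8.99 and 8.87 RPKM and at 5.20 and 7.29 RPKM with p38-MAPKi, a log2 fold change of -0.54.

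The p38-MAPKi effect at 7 h was also set against that at 4 h and at 10 h. Because both contrasts hold the 7 h values that were known when the genes were chosen, they are description only and nothing is read from their counts. For the p38-MAPKi effect at 7 h against 4 h, 129 members were tested and limma called 0 (0.00933% of all genes tested), 6 had an unadjusted p under 0.05 (6.94%), 0 higher (2.01%) and 6 lower (4.94%), and voom called 0. The median was -0.21 for members and -0.21 for all genes, and 70.9% of all genes tested lay below 0. Calls appeared when the second p38-MAPKi library of 7 h was left out. For the effect at 7 h against 10 h, 131 members were tested and limma called 0 (0.00926%), 26 had an unadjusted p under 0.05 (27.1%), 2 higher (10.5%) and 24 lower (16.6%), and voom called 5. The median was -0.40 for members and -0.15 for all genes, and 107 members lay below 0 (60.3% of all genes tested). Calls appeared without the first control library of 7 h and without the second p38-MAPKi library of 7 h. No share of all genes stands beside the calls of voom or of these fits.

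KRAB members lay lower at 4 h than members without the box. Their median log2 fold change was -0.25, with 60 of 78 (76.9%) below 0 and 33 (42.3%) lower without overlap, whereas members without the box had a median of -0.02, with 26 of 51 (51.0%) below 0 and 7 (13.7%) lower without overlap. Of all genes tested 40.0% were below 0 and 13.7% lower without overlap, the latter the same share as in members without the box. The 33 KRAB members lower without overlap hold Zfp758 and Zfp719, the lowest of them, which passed the filter only through the controls. At 7 h both groups had a median of -0.34, and at 10 h the medians were 0.04 and 0.00. With a strict KRAB pattern in place of the profile, the 4 h medians were -0.29 for 44 genes and -0.08 for 85. The difference of medians at 4 h ranged from -0.28 to -0.13 over the alternative settings, the smallest without the first control library. KRAB members were also weaker. Among members with a mean of at least 1 RPKM their median was 2.39 RPKM, against 4.36 RPKM for the others. The 2 groups were not compared at equal levels.

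**Figure D4:**
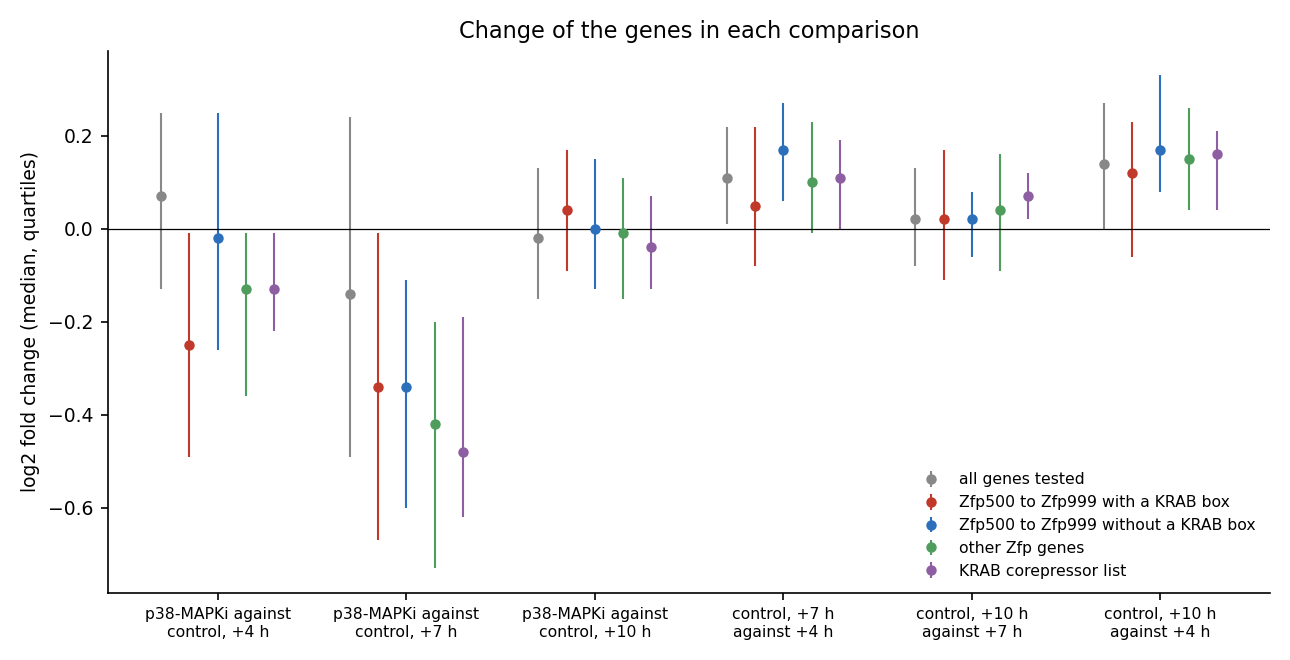
Log2 fold changes with p38-MAPKi at 4, 7 and 10 h of members with and without a KRAB box, beside other zinc finger genes, corepressors and all genes tested.

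Members were set beside genes of similar transcript length, because at 4 h and 7 h all genes differed by length. The median length of the members was 3773 bases (864 to 15810); among genes with a mean of at least 1 RPKM it was 3762.5 bases for members and 3925 for all genes, and 3527.5 for KRAB members and 4826.5 for the others. At 4 h the median log2 fold change of all genes went from 0.21 in the shortest of 4 length bands over 0.14 and 0.04 to -0.10 in the longest. Members of the same bands had medians of -0.09 (10 genes), -0.12 (59), -0.20 (36) and -0.26 (24), below all genes in every band. At 7 h all genes had 0.33, -0.03, -0.24 and -0.45, and members -0.11, -0.28, -0.44 and -0.49. At 10 h neither members nor all genes differed by more than 0.1 between bands. KRAB members at 4 h had -0.42 (6 genes), -0.19 (42), -0.26 (26) and -0.43 (4) in these bands, and members without the box 0.45 (4), 0.15 (17), -0.05 (10) and -0.23 (20). KRAB members thus lay lower than the others in each band.

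With the trend on length removed, the members' median was -0.22 at 4 h, with 97 of 129 below 0 and 0.01 for all genes. At 7 h it was -0.19, with 92 of 133 below 0 and 0.01 for all genes, and at 10 h 0.02 against -0.01. KRAB members had -0.28 at 7 h and the others -0.10. Zfp568 had -0.83, -1.19 and -0.36 at 4, 7 and 10 h. In this fit limma called 0 members at 4 h and 0 at 7 h.

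**Figure D5:**
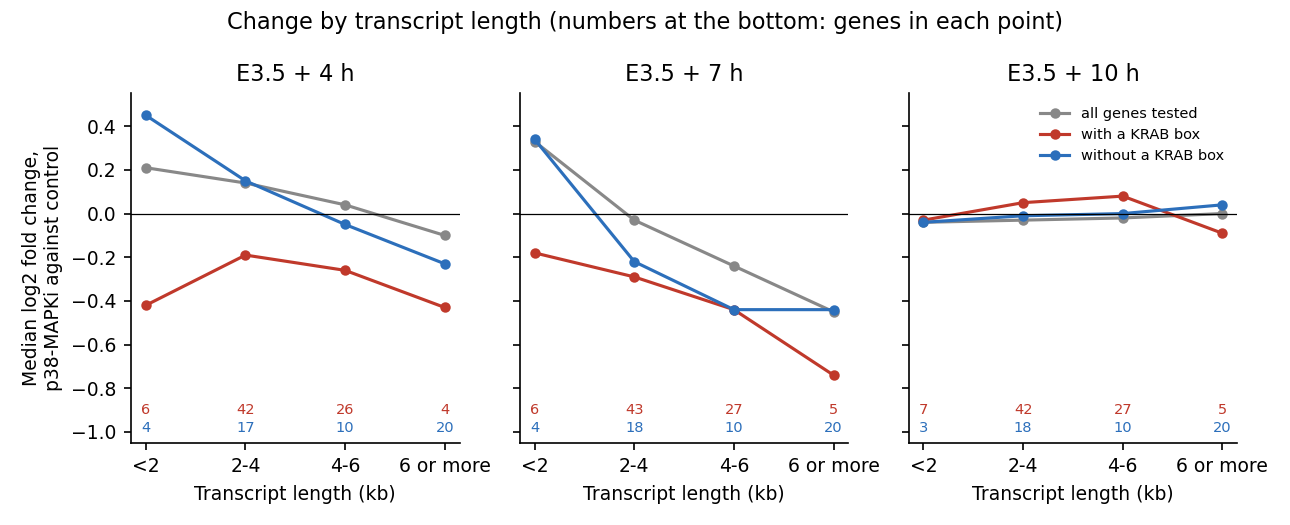
Log2 fold change with p38-MAPKi against transcript length for members and for all genes tested.

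Level and read sharing were looked at in the same way. At 4 h members with a mean under 2 RPKM had a median of -0.22 (44 genes) and those of at least 10 RPKM 0.00 (17 genes), beside 0.01 and 0.12 for all genes of these levels. Members with more than 10% of shared windows and the others had the same median at 4 h, -0.17 (38 and 91 genes), and at 7 h -0.18 (40) and -0.37 (93). The cluster on chromosome 4 that holds Zfp982, a stretch picked after the values were seen, has 18 members: at 4 h all 11 tested lay below 0, with a median of -0.32 and 7 (63.6%) lower without overlap, beside 40.0% of all genes below 0 and 13.7% lower without overlap. At 7 h its median was -0.02, at 10 h 0.08, and in control embryos -0.24 from 4 h to 10 h, where all genes had 0.14. Its most abundant gene, Zfp985, was read at 33.3 and 37.7 RPKM in control embryos at 4 h and at 27.6 and 32.5 RPKM with p38-MAPKi, without overlap.

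Zinc finger genes outside the range and the partners of KRAB proteins were set beside the members. The 189 other Zfp genes had a median of -0.13 at 4 h (110 tested; 30.0% lower and 7.27% higher without overlap, beside 13.7% and 26.8% of all genes), -0.42 at 7 h (120 tested; 84.2% below 0, beside 59.9% of all genes) and -0.01 at 10 h. The 7 h median was -0.25 with the length trend removed and -0.22 with median centring. The corepressor list was chosen with earlier results of these data known, so its calls are description only. Of 25 corepressor genes, all tested, limma called 1 lower at 4 h, Atrx (log2 fold change -0.85, Benjamini-Hochberg adjusted p = 0.0463). Of all genes tested 0.288% were called lower at 4 h. Limma called 1 of the 25 lower at 7 h (Dnmt3b, beside 1.20% of all genes) and 0 at 10 h (0.803% called either way). At an unadjusted p under 0.05, 4 were lower at 4 h (327 of all 10781 genes), 14 at 7 h (1931 of 10940) and 5 at 10 h (1267 of 10959), and 0 were higher at each time (689, 1171 and 905 of all genes). Their medians were -0.13, -0.48 and -0.04, with 19, 23 and 15 of 25 below 0 (40.0%, 59.9% and 54.3% of all genes), and at 7 h 20 of the 25 were lower without overlap (38.7% of all genes). These genes are long, with a median of 5992 bases, and their 7 h median was -0.17 with the length trend removed and -0.28 with median centring; at 4 h it was -0.07 with the length trend removed. Trim28, the shared partner of the KRAB proteins, was read at 221 and 221 RPKM in control embryos at 7 h and at 151 and 167 RPKM with p38-MAPKi. At 4 h Trim28 was read at 204 and 239 RPKM and at 217 and 222 RPKM with p38-MAPKi, and at 10 h at 225 and 227 RPKM and 193 and 194 RPKM. Its groups were separate at 7 h and 10 h and overlapped at 4 h. Setdb1, the methyltransferase, was read at 11.6 and 15 RPKM at 7 h and at 8.87 and 9.47 RPKM with p38-MAPKi.

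ZFP568 represses a placental promoter of Igf2. Igf2 was read at 3.31 and 4.01 RPKM in control embryos at 4 h and at 4.34 and 2.79 RPKM with p38-MAPKi. At 7 h it was read at 4.37 and 4.41 RPKM and at 2.21 and 4.29 RPKM, and at 10 h at 4.08 and 6.82 RPKM and at 7.96 and 9.90 RPKM. The groups overlapped at 4 h; at 7 h Igf2 was lower with p38-MAPKi and at 10 h higher, with no overlap. The log2 fold changes were -0.07, -0.51 and 0.75, and none passed the test (at 10 h limma with Benjamini-Hochberg adjustment gave an adjusted p of 0.16). A link between Zfp568 and Igf2 was not tested.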

How the data were processed

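The authors trimmed reads (Trim Galore 0.4.1), aligned them to GRCm38 (HISAT2 2.0.5) and deposited log2 RPKM per gene. From these deposited log2 RPKM values whole reads per gene were recovered, which gave library totals of 11242313 to 24457311 reads; genes with no read hold the value of 0.9 reads. Each comparison was fitted with limma (trend) on genes with at least 1 RPKM in 2 of 4 libraries (4 of 8 for differences between times), with Benjamini-Hochberg adjustment over all genes tested. Alternatives were no trend, median centring, no filter, log2 (RPKM + 1), 1 fit over 12 libraries, a replicate block, removal of the length trend (loess), voom and leaving out each library. The fits were tested on simulated data. Named genes were drawn from those called, the 5 largest differences each way without overlap at a mean of at least 2 RPKM, the 10 highest means and genes of known role. Values are not given for all of these, and of the largest rises at 7 h only for Zfp688. Members and lists (Zfp genes outside the range, corepressors, lineage, cumulus and blood markers) were chosen with earlier results of these data known. The profile for the KRAB box was added after the strict pattern had been seen to miss boxes, and the chromosome 4 cluster after the values were seen.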

Additional observations from a re-analysis of the deposited data

How the results depend on the processing

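With 2 libraries a group, leaving out 1 assumes that the lone sample varies like the other group. The counts under these alternatives have no share of all genes beside them, so they show only how the calls depend on the setting. The number of members called at 4 h (3) was 0 without the trend, with median centring, with no filter, in 1 fit over 12 libraries and with the length trend removed, 1 with voom and 0 to 6 without 1 library. At 7 h (2) it was 0 without the trend, with median centring, with no filter and with the length trend removed, 26 in 1 fit over 12 libraries, 14 with voom and 0 to 38 without 1 library. At 10 h (1) it was 0 without the trend, with no filter and in 1 fit over 12 libraries, 2 with voom and 0 to 1 without 1 library, the 1 being Zfp771 and not Zfp750 without the second p38-MAPKi library. In control embryos it was 0 in every setting for 7 h against 4 h and 10 h against 7 h. For 10 h against 4 h it was 2 with voom, and calls appeared without the second control library of 4 h. The effect at 7 h against 4 h gave 0 to 3 without 1 library, and 7 h against 10 h gave 5 with voom and 0 to 31 without 1 library. With the replicate number as a block the counts were 1 at 4 h, 15 at 7 h, 2 at 10 h and 4 for 10 h against 4 h in control embryos, and unchanged elsewhere; samples of the same number did not deviate together (correlations of -0.01 to 0.14), so the block reflects a shared number and no known pairing. No fold change of a called member turned its direction in any setting. The KRAB profile, an alternative chosen after seeing the data, changed no fold change.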
